A study of Mus musculus with 17 samples.

Results

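The LIM homeobox and motor neuron genes Lhx1, Lhx3, Lhx4, Lhx5, Lhx2, Lhx9, Isl1, Isl2 and Mnx1 were followed through H3K27ac HiChIP loops of mouse embryoid bodies. They are 9 of 22367 protein-coding genes with an annotated start site (TSS). A loop counted for a gene when one of its anchors lay within 5 kb of a TSS of that gene in mm9. This rule took 432 of 1211657 loops, with 661 read pairs in bulk and 185 in double positive libraries. Of these loops 306 had 1 read pair, 95 had 2 to 4 and 31 had 5 or more. No loop joined a pair of these genes (0 of 432).

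LIM homeodomain proteins carry paired LIM zinc-binding domains, which bind the adaptor Ldb1, and a homeodomain, which binds DNA. In the spinal cord, combinations of them separate motor neurons from interneurons. Lhx3 and Isl1 act together in motor neurons, and Lhx3 without Isl1 acts in ventral interneurons. Mnx1, also called HB9, is a homeobox factor without LIM domains that keeps the motor neuron programme from sliding to an interneuron programme, and it also works in endoderm of the dorsal pancreas.

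HiChIP joins pieces of chromatin that lie close together and enriches for the histone mark H3K27ac, which active promoters and enhancers carry. All libraries came from R1 mouse embryonic stem cells grown as hanging-drop embryoid bodies (EBs) and treated with retinoic acid (RA) at 0.5 µM for 4 days (RA-day 4). The 12 bulk libraries held unsorted cells. The 5 double positive libraries, which the labels call cluster2, held cells sorted for the surface proteins EpCAM and CD38, collected in 5 FACS runs per the study's text, and no library of the cells left by the sort was analysed here. Unsorted EBs contain double positive cells too, and fewer cells of a type cannot be told apart from fewer contacts per cell. The labels do not say whether the libraries of a group came from separate cultures, so p-values measure only the spread between these libraries.

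Bulk libraries held 65148 to 241068 read pairs in loops and double positive libraries 50508 to 118179. Between 90.4% and 95.3% of the loops of a bulk library, and 63.0% to 71.1% of those of a double positive library, had 1 read pair. The deposited counts list only loops with a read pair, and the anchors that the loops use differ between groups. Of 216081 joined anchors 15074 were used by both groups, 200999 by bulk loops only and 8 by double positive loops only. Loops on anchors used by both groups, here called shared anchors, held 12.3% of the bulk read pairs. Of the 21 anchors at the 9 genes, 8 were used by double positive loops and 13 were not. Whether those 13 were missing from the peaks of double positive cells, or were peaks that no read pair met, cannot be told apart, and a gene with only such anchors is given without a fold.

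The sequences below belong to Mnx1 and Lhx3, whose loops were the only members' loops with enough read pairs for a test. The first pair is the 250 bases before the most upstream TSS, read on the gene's strand, from chr5:29805060-29805309 for Mnx1 and chr2:26063770-26064019 for Lhx3 (mm9, minus strand in both).
Mnx1 before the TSS: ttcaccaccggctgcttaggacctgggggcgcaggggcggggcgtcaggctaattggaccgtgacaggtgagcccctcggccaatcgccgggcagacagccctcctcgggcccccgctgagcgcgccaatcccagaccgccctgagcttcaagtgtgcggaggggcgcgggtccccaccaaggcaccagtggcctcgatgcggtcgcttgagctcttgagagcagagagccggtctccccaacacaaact
Lhx3 before the TSS: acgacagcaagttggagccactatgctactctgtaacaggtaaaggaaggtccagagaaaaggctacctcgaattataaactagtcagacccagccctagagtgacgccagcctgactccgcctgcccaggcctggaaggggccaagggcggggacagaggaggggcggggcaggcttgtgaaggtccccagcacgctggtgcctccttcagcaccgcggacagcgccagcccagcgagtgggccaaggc
Their GC content was 68.0% and 62.0%, against a median of 54.0% over 22362 genes. Both windows lack GATC, the site of the enzyme MboI at which the chromatin was cut, and 40.2% of all such windows hold it. TAATTA, a core motif that many homeodomains bind, was in the window of 0 of the 9 members, where 4.59% of all windows hold it. Both motifs read the same on either strand.

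The anchors of the tested loops held TAATTA, and 60 bases on each side of it are shown for one match in each anchor, with the motif in capitals and the strand of the gene. None of these windows overlaps an annotated exon.
Mnx1 anchor at the TSS (chr5:29802287-29802412): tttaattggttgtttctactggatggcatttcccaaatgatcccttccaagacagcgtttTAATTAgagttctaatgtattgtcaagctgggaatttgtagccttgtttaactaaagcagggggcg
Mnx1 partner anchor (chr5:29793873-29793998): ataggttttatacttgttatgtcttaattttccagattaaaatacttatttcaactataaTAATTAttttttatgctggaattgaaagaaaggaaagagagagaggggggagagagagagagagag
Lhx3 downstream anchor (chr2:26053950-26054075): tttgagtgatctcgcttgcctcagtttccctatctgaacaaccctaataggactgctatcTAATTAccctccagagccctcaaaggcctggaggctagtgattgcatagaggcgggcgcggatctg
Lhx3 partner anchor (chr2:26013871-26013996): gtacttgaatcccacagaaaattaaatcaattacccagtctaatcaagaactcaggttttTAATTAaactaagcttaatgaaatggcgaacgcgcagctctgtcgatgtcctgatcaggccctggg
The motif is common at this length. Among joined anchors of similar length, 78.1% of those like the Mnx1 anchor and 51.3% of those like its partner held TAATTA. For the Lhx3 pair the shares were 58.5% and 79.4%. Of the 21 anchors at the 9 genes 13 held it.

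Read pairs of all loops of a gene were summed per library and tested over all genes with edgeR's quasi-likelihood test. Normalized counts are in CPM, read pairs relative to the effective size of their library after TMM scaling, in the usual unit of edgeR. Of the 9 genes 7 passed the filter of at least 20 read pairs and 5 libraries with a read pair. Mnx1 was higher in double positive libraries, and Lhx1, Lhx5, Lhx3, Lhx4, Lhx2 and Lhx9 were lower, all with an adjusted p under 0.05, although Lhx2 and Lhx3 changed sign when libraries were scaled by their totals alone. Lhx3 and Lhx4 had at least 20 read pairs in each group. Lhx1, Lhx5, Lhx2 and Lhx9 reached 20 read pairs only through bulk and Mnx1 only through double positive libraries, the groups where they were higher, so the count of members called is a description. The adjusted p-values of these genes, here and below, are given as values and not as support. Lower calls were common in this comparison: 42.8% of the 14115 genes tested were lower and 20.6% higher, and the median log2 fold change of all genes was -0.52. Scaling by library size alone moved that median to 1.21. For this reason each member is also placed relative to the median gene.

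**Figure D1:**
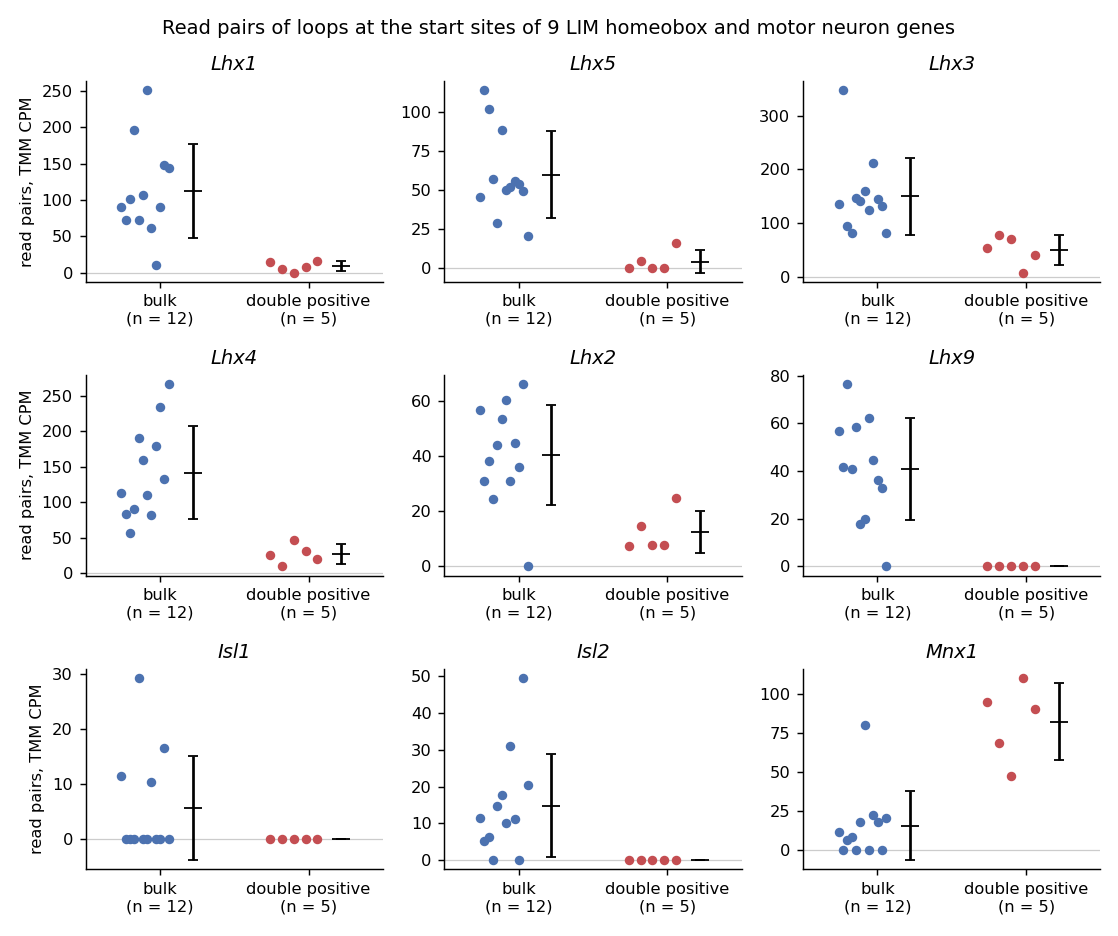
Normalized read pairs (TMM CPM) of loops at each of the 9 genes, 1 point per library, with the mean and SD as black bars. Double positive libraries of Mnx1 lie between 47.2 and 110 CPM, above all bulk libraries but replicate 7, and Lhx9, Isl1 and Isl2 have no double positive read pair.

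Mnx1 was met by 82 double positive and 16 bulk read pairs, although bulk libraries held more read pairs in all (1616066 against 409248). The double positive libraries 1 to 5 had 94.9, 68.4, 47.2, 110 and 90.4 CPM, and the 12 bulk libraries ranged from 0 to 80.4 CPM with a median of 9.77. All double positive libraries lay above the bulk median, and 3 of 5 lay above every bulk library. Bulk replicate 7, with 8 of the 16 bulk read pairs, was the one bulk library inside the double positive range. The mean was 82.2 ± 24.7 CPM (SD, n = 5) against 15.4 ± 22.2 CPM (SD, n = 12), a log2 fold change of 2.44 ± 0.49 (SE) with an adjusted p of 5.27e-05 in edgeR's test. Relative to the median gene this was 2.95. Of all genes tested 0.928% had a higher log2 fold change. Without bulk replicate 7 it was 3.22. As CPM of the library total, without TMM, the double positive libraries (118 to 277) and the bulk libraries (0 to 46.0) did not overlap, as was the case for 36.4% of the genes tested on that scale. With TMM scaling, 7.22% of the genes had all double positive libraries above all bulk libraries.

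Most double positive read pairs of Mnx1 lay in 3 loops, with 33, 16 and 9 of 82, while 13 of its 19 double positive loops had 1 read pair. One anchor, chr5:29801546-29807440, spans the TSS and carried all 29 loops. Its strongest loop reached an intergenic anchor 9704 bp downstream, beyond the gene's end (chr5:29793607-29795971). The 5 double positive libraries had 10, 5, 1, 3 and 14 read pairs in this loop, 33 in all, and the 12 bulk libraries had 0. Both anchors are shared anchors. The pooled normalized count was 25.9 CPM, at least 8.40-fold above the 3.08 CPM that 3 counts over all bulk libraries would give, with an adjusted p of 3.15e-07 in edgeR's test over 5369 loops. Such bounds use TMM-scaled library sizes and cover counting error only, since read pairs copied by PCR are not independent molecules. The loop passed the filter only through its double positive read pairs, and 38.1% of all loops tested were higher.

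The next partners of Mnx1 were promoters of other genes. The loop of 100349 bp to the promoter of Lmbr1, known for the limb enhancer of Shh in one of its introns, had 5, 2, 3, 6 and 0 read pairs in the double positive libraries and 1 in bulk. The loop of 43099 bp to the promoter of Nom1, a nucleolar protein gene, had 4, 2, 0, 1 and 2 read pairs against 1. Upstream, the loop of 259056 bp to the promoter of Dnajb6, a co-chaperone gene, had 1 read pair in each double positive library and 0 in bulk. None of these loops had enough read pairs for a test. Bulk read pairs went elsewhere: 5 of the 16 joined the TSS to an anchor 8326 bp upstream (chr5:29810669-29814968) outside the double positive loops, 4 of them in replicate 7 and 1 in replicate 9. In double positive libraries 51.2% of the Mnx1 read pairs met another promoter, a share given without that of all genes.

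**Figure D2:**
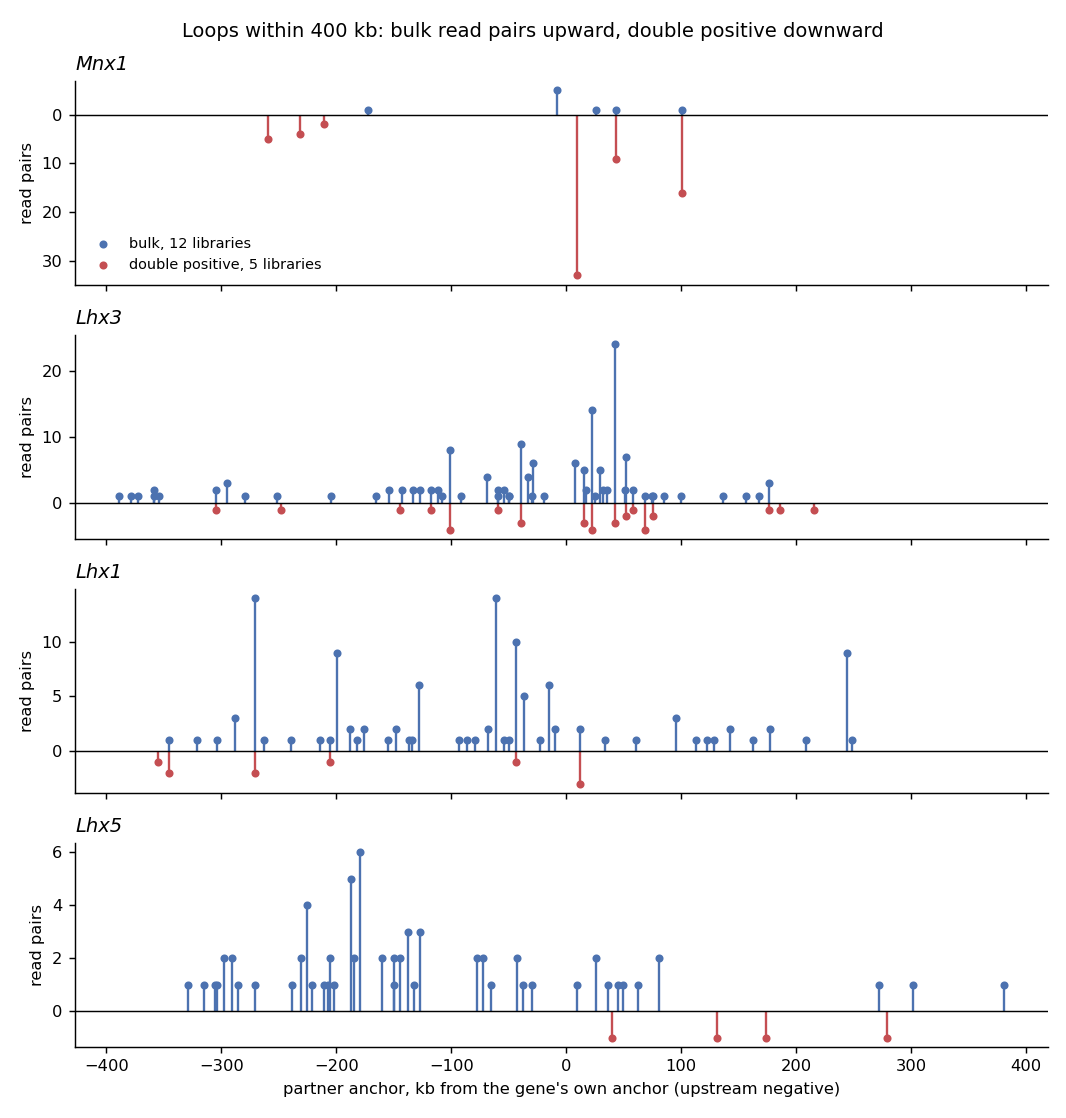
Loops within 400 kb of Mnx1, Lhx3, Lhx1 and Lhx5 by the distance of the partner anchor from the gene's own anchor (kb, upstream negative), with read pairs pooled over 12 bulk libraries upward and over 5 double positive libraries downward. The 33 double positive read pairs of Mnx1 stand 9704 bp downstream, and the Lhx1 and Lhx5 loops of bulk libraries lie mostly upstream.

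Lhx3, needed for motor neurons, ventral interneurons and the pituitary, had the most read pairs of the 9 genes, 189 in bulk and 51 in double positive libraries. The double positive libraries had 54.7, 78.2, 70.8, 7.88 and 41.1 CPM, and the bulk libraries 81.8 to 348 CPM with a median of 139. The groups did not overlap, with all 12 bulk libraries above the highest double positive library, as for 14.9% of the genes tested. As CPM of the library total they did overlap, with 61.4 to 278 in bulk and 19.8 to 186 in double positive libraries. Replicate 2 stood highest in bulk, with 67 read pairs, and double positive replicate 4 lowest, with 1. The mean was 50.5 ± 27.8 CPM (SD, n = 5) against 150 ± 71.7 CPM (SD, n = 12), a log2 fold change of -1.58 ± 0.34 (SE) with an adjusted p of 0.000133 in edgeR's test, or -1.06 relative to the median gene. Without bulk replicate 2 it was -1.34 (adjusted p = 0.000401). Scaled by library size alone the log2 fold change was 0.18 (adjusted p = 0.645), and the pooled CPM of the library total was 117 in bulk and 125 in double positive libraries.

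Most Lhx3 read pairs belonged to an intergenic anchor downstream of the gene (chr2:26052036-26055038), with 159 read pairs in bulk and 37 in double positive libraries. It lies 3348 bp from the TSS of a transcript without coding sequence and 7057 bp from the nearest coding TSS. The anchor at the coding TSS (chr2:26061495-26065002), which also overlaps Qsox2, had 42 and 16. When only start sites of coding transcripts were used, a choice made after seeing the data, the downstream anchor left the window, the log2 fold change was -1.15 and the call was lost (adjusted p = 0.0529).

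The downstream anchor met a further intergenic anchor at chr2:26008113-26014355, 42303 bp away, in the only lower loop of the 9 genes that could be tested. The double positive libraries had 0, 2, 0, 0 and 1 read pairs in it, and the bulk libraries 0 to 7 with a median of 2.0. The normalized count was 2.25 ± 3.50 CPM (SD, n = 5) against 23.1 ± 18.2 CPM (SD, n = 12), and 3 of 12 bulk libraries had no read pair. The log2 fold change was -2.94 ± 0.67 (SE), with an adjusted p of 4.49e-05 in edgeR's test, where the median of all tested loops was 0.78 and 22.4% of them were lower. With 24 bulk and 3 double positive read pairs, the loop passed the filter only through bulk, so its adjusted p is a value and not support. With library size alone it was -0.90 and not called (adjusted p = 0.259). The anchor at the coding TSS met the same partner with 7 bulk and 2 double positive read pairs. The loop between both Lhx3 anchors, 9712 bp, had 12 and 2.

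Lhx4, the paralogue that shares roles with Lhx3 in motor neurons and the pituitary, had 137 bulk and 24 double positive read pairs. Lhx4 levels in double positive libraries were 25.6, 9.77, 47.2, 31.5 and 20.5 CPM, and the bulk libraries 57.4 to 266 CPM with a median of 123. The groups did not overlap, as for 14.9% of the genes tested. As CPM of the library total they did overlap, with 44.3 to 199.5 in bulk and 23.3 to 117.6 in double positive libraries. The log2 fold change was -2.34 ± 0.38 (SE), with an adjusted p of 2.57e-06 in edgeR's test, or -1.82 relative to the median gene, and with library size alone it was -0.58 and not called (adjusted p = 0.168). Of its 3 anchors only that at the TSS (chr1:157586707-157591128) was used by double positive loops, and the other two held 20 and 43 bulk read pairs. No Lhx4 loop had more than 10 read pairs. The strongest, to an intergenic anchor 9795 bp upstream, had 7 in bulk and 3 in double positive libraries, and the partner met by most bulk read pairs, 12 from 3 own anchors, lay in an intron of Acbd6, 131848 bp from the nearest of them.

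Lhx4 lies on distal chromosome 1, where bulk libraries held an excess of read pairs, so its fold change was set against the genes around it. The 33 genes tested within 2 Mb had a median log2 fold change of -2.99 (-2.90 with the 11 genes without double positive read pairs at their bound), and Lhx4 stood 0.65 above it, with 22 of them lower and 11 higher than Lhx4. Relative to its 15 neighbours within 1 Mb it stood at -0.13, and within 5 Mb 1.37 above 70 neighbours. Over chromosome 1 from 130 Mb on, the median of 496 genes was -4.56, against -1.56 for the 429 genes before that point. Of the 496 genes 240 had no double positive read pair, and with these at their bound of 3 counts the median was -3.41. Lhx4 thus lay below the median gene of the genome and above that of its 2 Mb region, and the part of the regional excess in its call was not tested.

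Lhx1, which acts in the head organizer, the kidney and spinal interneurons, had 126 bulk and 10 double positive read pairs, all from a single anchor at the TSS (chr11:84337441-84340258). This anchor also overlaps the gene 1500016L03Rik, and read pairs of the pair cannot be told apart. Lhx1 levels in double positive libraries were 14.6, 4.88, 0, 7.88 and 16.4 CPM, and the bulk libraries 11.2 to 251 CPM with a median of 96.4. The groups overlapped through bulk replicate 9, which had 1 read pair, and the other 11 bulk libraries lay above every double positive library. The log2 fold change was -3.36 ± 0.49 (SE), with an adjusted p of 5.41e-07 in edgeR's test, or -2.84 relative to the median gene, and -1.67 with library size alone, still called (adjusted p = 0.00470). With a TSS window of 10 kb it was -1.70 (adjusted p = 0.000722), or -0.89 relative to the median gene of that setting.

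The bulk loops of Lhx1 pointed away from the gene. Of its bulk read pairs 78.6% met anchors upstream of the TSS, and 28 of its 50 partner anchors were intergenic. The leading partners lay 270318 bp (14 bulk and 2 double positive read pairs), 61496 bp (14 and 0) and 43844 bp (10 and 1) upstream, in an intergenic stretch, and all 3 are shared anchors. With TMM scaling, the loop of 61496 bp was at least 6.11-fold higher in bulk than 3 counts over the double positive libraries would give, and replicate 7 held 6 of its 14 read pairs. This bound depends on the scaling: 3 counts there are 2.35 CPM with TMM and 7.33 CPM of the library total. Downstream, 9 bulk read pairs reached an exon of Acaca, a fatty acid synthesis gene, over 244430 bp, at an anchor outside the double positive loops. Double positive read pairs were most in the loop of 11951 bp to the promoter of Aatf, with 3 against 2 in bulk.

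Lhx5, the paralogue of Lhx1 that acts in forebrain and spinal interneurons, had 78 bulk and 5 double positive read pairs. Lhx5 levels in double positive libraries were 0, 4.88, 0, 0 and 16.4 CPM, and the bulk libraries 20.5 to 114 CPM with a median of 52.9. The groups did not overlap, as for 14.9% of the genes tested. As CPM of the library total they did overlap, with 15.35 to 91.26 in bulk and 0 to 38.63 in double positive libraries. Double positive replicate 5 held 4 of the 5 read pairs. The log2 fold change was -3.43 ± 0.55 (SE), with an adjusted p of 2.46e-06 in edgeR's test, or -2.91 relative to the median gene. It was -4.74 without double positive replicate 5, a value that depends on the prior count, since only replicate 2 then had a double positive read pair (1). Of its 78 bulk read pairs 64 met upstream anchors, 12 downstream anchors and 2 another anchor of the gene, and the leading ones lay 179038, 186800 and 225294 bp away, with 6, 5 and 4 bulk and 0 double positive read pairs, and only the last of these anchors is used by double positive loops. All 5 double positive read pairs went downstream, 4 of them to another promoter.

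Lhx2 and Lhx9 are paralogues known from eye, forebrain and limb for Lhx2 and from gonad and dorsal interneurons for Lhx9. Lhx2 had 45 bulk and 13 double positive read pairs over 5 anchors, of which 2 were used by double positive loops. Lhx2 levels in double positive libraries were 7.30, 14.7, 7.86, 7.88 and 24.7 CPM, and the bulk libraries 0 to 66.1 CPM with a median of 41.1. The groups overlapped through bulk replicate 12, which had 0 read pairs, and replicate 4, at 24.53 CPM just below double positive replicate 5 (24.65). The log2 fold change was -1.54 ± 0.46 (SE), with an adjusted p of 0.00405 in edgeR's test, or -1.03 relative to the median gene, and 0.16 with library size alone (adjusted p = 0.758). It was not called with a TSS window of 2.5 kb (-0.96, adjusted p = 0.12) or in libraries thinned to one depth (-1.22, adjusted p = 0.0799). The pooled CPM of the library total was 27.9 in bulk and 31.8 in double positive libraries. Of the 42 Lhx2 loops of bulk libraries 39 had 1 read pair.

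Lhx9 had 51 read pairs in bulk, in 11 of 12 libraries, and 0 in double positive libraries. The bulk libraries had 0 to 76.5 CPM with a median of 41.2. None of its 4 anchors is used by a double positive loop. It passed the filter through bulk read pairs alone, so its adjusted p (6.94e-07 in edgeR's test) is given as a value and not as support. Of all genes tested 3058 (21.7%) had no double positive read pair, 905 of them with as many bulk read pairs as Lhx9 or more. Lhx9 also lies on distal chromosome 1: of 8 genes tested within 2 Mb 5 had no double positive read pair, and their median log2 fold change was -4.97, or -3.66 with those at their bound.

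Isl1 and Isl2, which start and refine motor neuron identity, were near the limit of the data. Isl1 had 5 read pairs in 4 of 12 bulk libraries and Isl2 had 14 in 10 of 12, each in a loop of its own. The highest bulk library had 29.3 CPM for Isl1 and 49.6 CPM for Isl2, with medians of 0 and 11.3. Neither had a double positive read pair, and neither passed the filter. Without a filter both were called lower (adjusted p = 0.0234 for Isl1 and 0.000725 for Isl2), with bulk read pairs alone behind the calls. Their anchors, 1 for Isl1 and 2 for Isl2, were not used by double positive loops. The Isl1 loops were long, 395382 to 997631 bp, all to intergenic anchors.

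**Figure D3:**
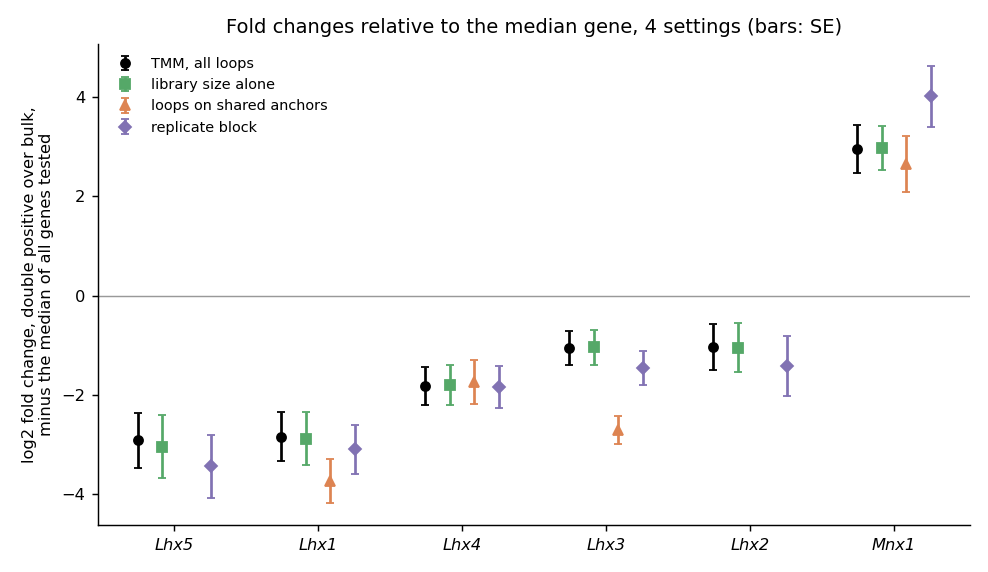
Log2 fold changes of 6 members, double positive over bulk, minus the median of all genes tested, in 4 settings (TMM on all loops, library size alone, loops on shared anchors and the replicate block), with bars for the SE. Mnx1 lies above and the other members below the median gene in each setting in which they were tested, whereas before the median was subtracted Lhx3 and Lhx2 were at 0.18 and 0.16 with library size alone. Lhx5 and Lhx2 were not tested on shared anchors.

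The comparison was repeated on shared anchors, which leaves out loops with an anchor met by bulk loops only. Since these anchors are chosen by having double positive read pairs, the restriction keeps nearly all double positive and few bulk read pairs and favours higher values in double positive libraries. Of the 198213 bulk and 409192 double positive read pairs on these loops, Mnx1 had 4 in bulk and 82 in double positive libraries, Lhx3 122 and 51, Lhx1 52 and 10, Lhx4 29 and 24, Lhx5 13 and 5, and Lhx2 3 and 13. The log2 fold changes below were fitted with full library totals and TMM, and only the pooled CPM of Lhx2 uses the totals on shared anchors. Mnx1, which kept 82 of 82 double positive and 4 of 16 bulk read pairs, had a log2 fold change of 2.94 (adjusted p = 3.17e-06), which the choice of anchors favours. Lhx1 (-3.44, adjusted p = 8.46e-13), Lhx3 (-2.41, adjusted p = 4.68e-16) and Lhx4 (-1.45, adjusted p = 0.00587) were lower, where the median gene was at 0.30. For Lhx2 the pooled CPM was 15.1 in bulk and 31.8 in double positive libraries, both per total on shared anchors, with too few read pairs for a test. Over all loops, as CPM of the library total, the pooled values were 27.9 and 31.8, already higher in double positive libraries. For Lhx9, Isl1 and Isl2 no read pair was left.

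Spans of the members' loops are given without a test. Over all 9 genes 56.4% of the bulk read pairs spanned more than 100 kb (57.0% ± 6.32, SD, n = 12 libraries), and 56.2% of the double positive read pairs (58.3% ± 9.60, SD, n = 5). The median over 13953 genes with at least 10 bulk read pairs was 56.3%, and over 10243 genes with as many double positive read pairs it was 50.5%. Members differed among themselves: 35.4% of the bulk read pairs of Lhx3 spanned more than 100 kb, 58.7% of Lhx1, 58.4% of Lhx4, 74.4% of Lhx5 and 73.3% of Lhx2. In double positive libraries the shares were 26 of 51 read pairs for Lhx3, 6 of 10 for Lhx1, 66.7% for Lhx4, 80.0% for Lhx5 and 92.3% for Lhx2, each above the bulk share of the gene, and 48.8% for Mnx1, which held 82 of the 185 read pairs. Median spans weighted by bulk read pairs ran from 49510 bp for Lhx3 to 240231 bp for Lhx9 among genes tested, and that of Mnx1 was 43099 bp in double positive libraries. Another promoter was the partner of 39.7% of the bulk read pairs of Lhx3, 19.7% of Lhx4, 35.6% of Lhx2, 7.14% of Lhx1 and 12.8% of Lhx5. In double positive libraries these shares were 60.8% for Lhx3, 58.3% for Lhx4, 84.6% for Lhx2, 6 of 10 read pairs for Lhx1 and 80.0% for Lhx5, above the 51.2% of Mnx1, with only 5 to 51 read pairs a gene. Double positive read pairs meet only the few anchors that double positive loops use, while bulk read pairs are not limited to these. The promoter share over all genes is not given here, so these differences are not read as traits of the members.

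Neighbours placed the other members differently from Lhx4 and Lhx9. Mnx1 had a higher log2 fold change than each of the 52 genes tested within 2 Mb and each of the 93 within 5 Mb, and it stood 1.59 above the median of the 52. That median was 0.85, itself above the median of all genes (-0.52). Loops that join Mnx1 to promoters of neighbours, such as Nom1 and Lmbr1, count for both genes. Relative to the median of their neighbours, Lhx1 stood at -2.83 (46 genes), Lhx5 at -3.02 (48 genes), Lhx3 at -1.74 (100 genes) and Lhx2 at -1.44 (19 genes).

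**Figure D4:**
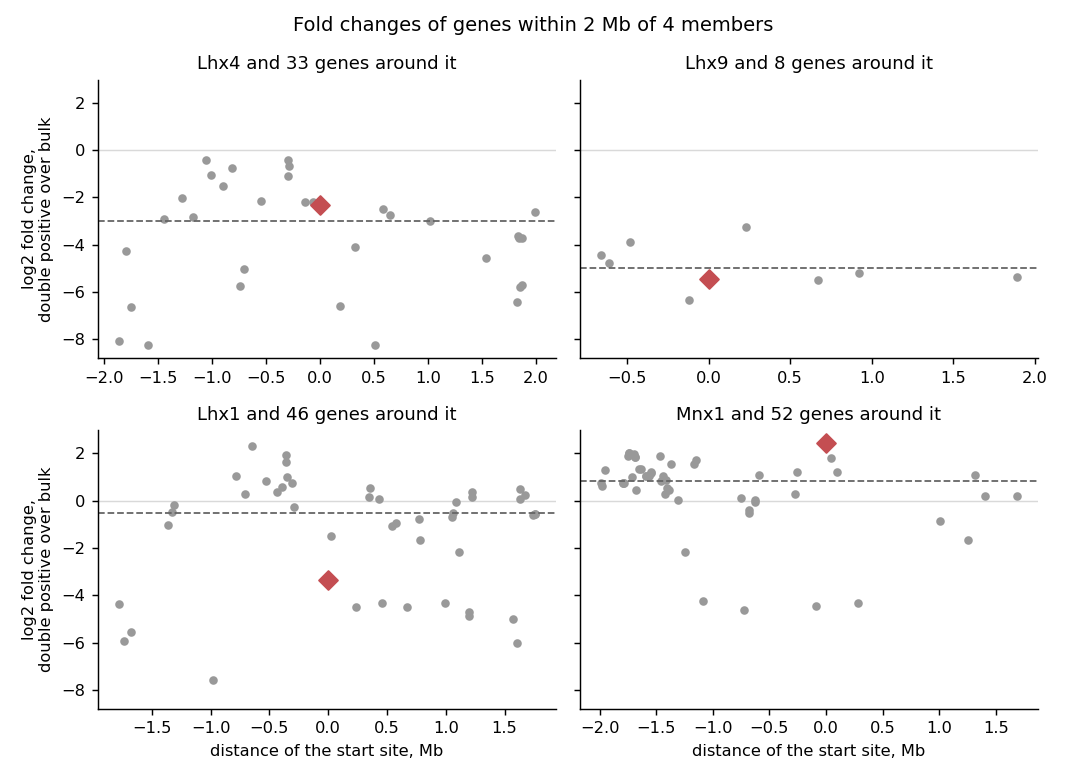
Log2 fold changes (double positive over bulk) of genes within 2 Mb of Lhx4, Lhx9, Lhx1 and Mnx1 by the distance of their TSS (Mb), with the member as a diamond and the median of the others as a dashed line. Mnx1 lies above all 52 genes around it and Lhx1 below most, while Lhx4 and Lhx9 lie among neighbours with medians of -2.99 and -4.97. Genes without double positive read pairs, Lhx9 among them, stand at fitted values.

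Over the 17 libraries, the genes most like Lhx3 in log2(CPM + 1) were Gramd4 (r = 0.91), Fars2 (0.90) and Lyrm4 (0.90), out of 6864 genes with at least 100 read pairs and not within 2 Mb. Fars2 and Lyrm4 shared their read pairs (195 in bulk and 18 in double positive libraries for each). The genes most like Lhx4 were Tmem63a (0.94), Lefty1 (0.94) and Sertad4 (0.93), all on chromosome 1, and those most like Lhx1 were Vash2 (0.94, also on chromosome 1), Phyhipl (0.92) and Mysm1 (0.92). The points share library depth and group.

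Genes that work with the members were counted on lists. Of the LIM cofactors 9 of 10 were tested, with 6 lower, 1 higher and a median log2 fold change of -0.70, although 5 were higher and 1 lower with library size alone. Over all genes tested 42.8% were lower and 20.6% higher, and 7800 of 14115 were higher and 3702 lower with library size alone. Ldb1, the adaptor that LIM domains bind, had 94 bulk and 89 double positive read pairs (log2 fold change 0.19, adjusted p = 0.617). Ssbp4, which stabilizes Ldb1 complexes, was highest (1.77, adjusted p = 1.02e-05, with 55 and 160 read pairs). Lmo3, a LIM-only protein gene, had 41 bulk and 0 double positive read pairs. Of 4 other LIM homeobox genes, Lmx1a was lower (45 and 0 read pairs), Lhx6 had 18 and 30 (0.88, adjusted p = 0.139), and Lhx8 and Lmx1b were not tested.

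Of 11 ventral spinal progenitor factors 10 were tested, with 8 lower, 0 higher and a median of -2.28, and with library size alone 4 were lower and 2 higher. Prdm12 had 41 and 0 read pairs, Dbx1 43 and 0 and Irx3 77 and 1, and Olig1 was highest (0.46, adjusted p = 0.594, with 9 and 11). Among motor neuron differentiation and transmitter genes 5 of 8 tested were lower and 1 was higher, with a median of -1.74, and 3 were lower and 1 higher with library size alone. Phox2a, a homeobox factor of cranial motor and noradrenergic neurons, was the higher one (1.39, adjusted p = 0.00120, with 40 and 95 read pairs), and Foxp1, a limb motor neuron factor with wider roles, had 265 and 0. With the 2.5 kb window, or with each loop counted once, 0 genes of this list were higher. Of 16 spinal interneuron factors tested 9 were lower and 0 higher, with a median of -1.91, and with library size alone 6 were lower and 3 higher. Evx2 had 33 and 0 read pairs and En1 67 and 3, and Tal1 was highest (0.57, adjusted p = 0.391). The share lower among all genes, 42.8%, stands beside these counts. For the counts with library size alone, 7800 of 14115 genes were higher and 3702 lower.

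Markers of cell types are given beside these genes, with the shares of all genes lower (42.8%) and higher (20.6%) for comparison and without a test of any list. For the counts with library size alone, the comparison is 7800 of 14115 genes higher and 3702 lower. Of 8 neural markers 5 were tested, and Sox2, Nes and Stmn2 were lower (2 lower and 2 higher with library size alone), with a median of -1.56 and a summed level of 212 to 904 CPM in bulk and 204 to 279 CPM in double positive libraries. Sox2 was lowest (-4.09, adjusted p = 3.05e-07) and Elavl3 highest (0.07, adjusted p = 0.856), and Sox1 and Map2 were not in the annotation under these names, so they were not measured. Of 10 extraembryonic endoderm markers 3 were higher (Gata4, Foxa2 and Col4a1) and 1 lower (9 and 1 with library size alone), with a median of 0.64 and a summed level of 497 to 882 CPM in bulk and 814 to 1093 CPM in double positive libraries. Col4a1 was highest (1.99, adjusted p = 2.39e-07) and Hnf4a, the lower one, had 262 and 0 read pairs. Sox7 (0.63), Gata6 (0.02), Lama1 (-0.41) and Sox17 (-0.57) were not called. The genes of the sort, Epcam (13 and 25 read pairs, adjusted p = 0.107) and Cd38 (36 and 51, adjusted p = 0.195), were not called. Of 5 cardiac markers Mef2c was lower (50 and 0 read pairs) and Nkx2-5 not called (1.03, adjusted p = 0.0681). These cardiac counts changed with the setting: 1 gene was higher with DESeq2, the 10 kb window, each loop counted once, library size alone, spans of at least 20 kb and thinning, and 0 were lower with the 2.5 kb window, shared anchors, thinning and the replicate block. Of 4 pluripotency markers Pou5f1 was higher (1.06, adjusted p = 0.0225) and Esrrb lower (132 and 0). On shared anchors, with spans of at least 20 kb and in thinned libraries 0 pluripotency markers were higher. The part of cell composition in the members' values was not tested.

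**Figure D5:**
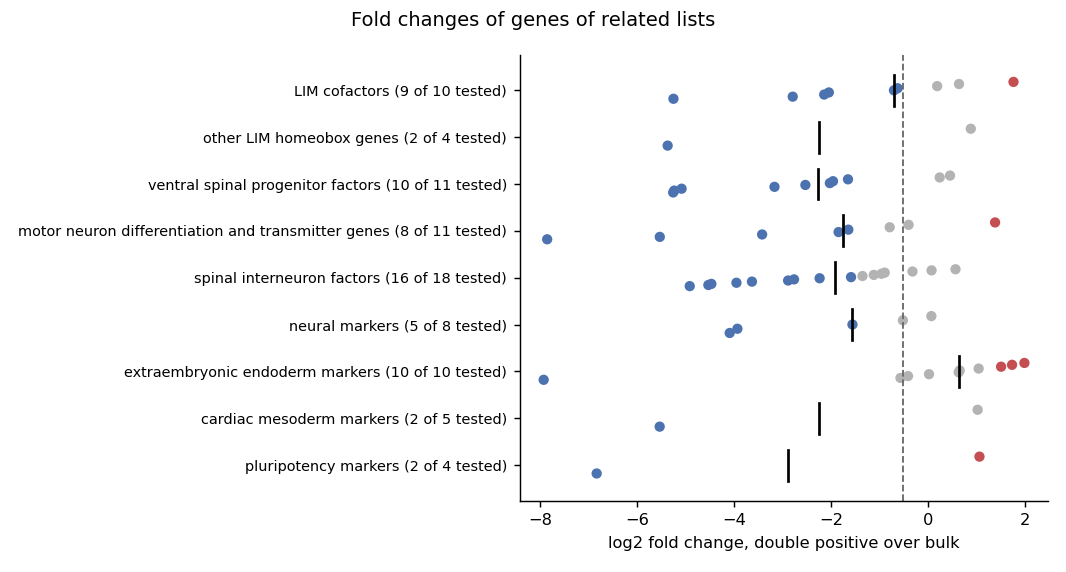
Log2 fold changes (double positive over bulk) of the tested genes of each list, coloured blue where lower, red where higher and grey where not called, with list medians as black bars and the median of all genes as a dashed line at -0.52. Genes without double positive read pairs stand at fitted values that depend on the prior count, and the spinal lists lie mostly left of the dashed line, with fewer genes lower in some lists when library size alone was used.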

How the data were processed

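Per their methods, the authors ran HiC-Pro on the reads (genome mm9), took peaks and loops from hichipper, and left out replicates with few strong loops. The deposited values are counts of read pairs per loop, without normalization. Members, lists and tests were chosen with earlier results of these data known. Named genes are the 9 members, their 3 strongest and all tested loops, the partner promoters, 3 genes alike for each of 3 members, and the lowest and highest fitted gene of each list. Overlapping anchors of the 17 libraries were joined, and 700 read pairs inside a joined anchor were dropped. Start sites of all transcripts of protein-coding genes came from GENCODE vM1, and sequences from the matching NCBIM37 genome. Of 22367 genes 19244 had an anchor within 5 kb. Genes and loops with at least 20 read pairs and 5 libraries were tested with edgeR 4.0.16 in R 4.3.3 (TMM, quasi-likelihood test, Benjamini-Hochberg, adjusted p under 0.05), and DESeq2 1.42.0 was an alternative. The test was tried on simulated counts. All pairs of libraries within a group differed by more than sampling noise in a chi-square test (largest p = 2.93e-42 in bulk, 4.71e-09 in double positive). Tables were made with Python 3.11.15, numpy 2.4.6, pandas 2.3.3 and scipy 1.17.1. Alternatives were other scalings and filters, thinning to 50508 read pairs, loops of at least 20 kb, each loop counted once, shared anchors, TSS windows of 2.5 and 10 kb, neighbourhoods of 1 and 5 Mb, the replicate block, each library left out and, added after the data were seen, start sites of coding transcripts and read pairs on shared anchors as a denominator. The genes Ldb1, Dbx1, Irx3, En1, Gata4, Gata6, Foxa2, Sox7, Sox17, Lama1, Nes, Stmn2, Epcam, Cd38 and the partners beyond the 3 strongest loops were named outside this rule, after their values were seen.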

Additional observations from a re-analysis of the deposited data

How the results depend on the processing

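The counts of 6 members lower and 1 higher were unchanged without any 1 library (17 settings), with DESeq2, TMMwsp and TMM without distal chromosomes 1 and 2. Members lower were 5 with the 2.5 kb window, 5 with coding start sites, 4 in thinned libraries and 8 without a filter, where Isl1 and Isl2 were called too. Library size alone left 3 members lower, with Lhx3 at 0.18 and Lhx2 at 0.16. Shared anchors also left 3 lower, since only 4 members were tested there. Mnx1 was called in all 32 settings, with 2.20 to 3.22 over the libraries left out. The settings draw on the same read pairs and are a description, not added support. Replicate numbers do not pair the samples (correlations of deviations from -0.019 to 0.017, 1 of 5 best with its own number), and with the replicate block in 10 libraries all 7 tested members kept their calls (Mnx1 3.79, Lhx1 -3.32, Lhx2 -1.64). Of all genes 3966 were lower with the block and 4171 in the same 10 libraries without it, against 6040 in 17 libraries. The lower Lhx3 loop was not among the lower loops (0) with the replicate block or the same 10 libraries without it, under the filter of 50 read pairs or in thinned libraries, where it was not tested, nor with library size alone (-0.90, adjusted p = 0.259) or no filter (-1.82, adjusted p = 0.368). The higher Mnx1 loop was not tested (0) under the filter of 50 read pairs, in thinned libraries, with spans of at least 20 kb, or without any 1 double positive library, where fewer than the 5 libraries needed had a read pair (0 to 1 loops higher and 1 lower over the libraries left out). The share over 100 kb was 64.5% in bulk and 74.8% in double positive libraries for spans of at least 20 kb, and 69.2% and 76.2% with each loop counted once. Median spans were 187400 bp in bulk and 324900 bp in double positive libraries with each loop counted once, and 231200 bp in double positive libraries for spans of at least 20 kb. Within 1 Mb, Lhx4 stood at -0.13, Lhx1 at -3.47 and Mnx1 at 2.42 relative to neighbours, and within 5 Mb Lhx4 stood at 1.37 and Lhx9 at -2.82, which is no measured fold because Lhx9 has 0 double positive read pairs and its fitted value depends on the prior count. Of all genes 7800 were higher and 3702 lower with library size alone, 9771 lower without a filter, 3786 under the filter of 50 read pairs, 2981 in thinned libraries and 1151 on shared anchors. Of all loops 2044 were higher and 1203 lower, against 4129 and 740 with library size alone, 334 and 197 under the filter of 50 read pairs, 1065 and 115 in thinned libraries, 827 and 429 with the replicate block, and 1142 and 486 in the same 10 libraries without it. Lower loops were 44 without a filter, 537 on shared anchors and 413 for spans of at least 20 kb. Of the 432 loops of the members 306 had 1 read pair, too few for a test of single loops. The causes were not tested.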
